A study of Mus musculus with 3 samples.

Results

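T cell receptors are built from constant genes that every receptor chain ends in, and 7 of the 9 genes described here are such genes: Trac (alpha), Trbc1 and Trbc2 (beta), Trdc (delta), and Tcrg-C1, Tcrg-C2 and Tcrg-C4 (gamma). The other two are the delta variable segment Trdv4 and Cd163l1, a scavenger receptor gene known as a surface marker of gamma-delta T cells that make IL-17, which is not a receptor gene. The 9 genes were picked by symbol from the 32285 genes of the files, with earlier results of these data known. They were followed in the barcodes with at least 500 unique molecular identifiers (UMIs, each standing for 1 captured RNA molecule), at least 200 genes and at most 10% mitochondrial UMIs, with attention to which chains were detected together.

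The samples were lamina propria mononuclear cells of the large intestine of C57BL/6J mice with acute colitis from 1.5% dextran sulfate sodium (DSS), an agent that injures the colon epithelium, given for 7 days and followed by 3 days of water. Mice received 250 µg of rat IgG, DATK32 or MECA-367 3 times a week. The series compares 2 gut-homing antibodies. By general knowledge DATK32 binds the integrin alpha4beta7 and MECA-367 binds its ligand MAdCAM-1, and the groups are named here by clone. Viable CD45+ cells were sorted, and each treatment gave 1 library of 3′ single-cell RNA (10x v3.1), so all 3 groups share the colitis and there is no group without it. How many animals went into a library is not stated.

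An alpha-beta T cell pairs an alpha with a beta chain, and a gamma-delta T cell pairs a gamma with a delta chain. The delta genes lie inside the alpha locus and are cut out when the alpha locus of that chromosome rearranges, whereas gamma genes can be rearranged and transcribed in alpha-beta T cells. Constant genes can also be transcribed from unrearranged loci, which is known in natural killer (NK) cells and innate lymphoid cells (ILC), so a constant-gene UMI in 1 barcode does not by itself show a receptor. In the gut, gamma-delta T cells are known as early sources of IL-17 and as cytotoxic cells near the epithelium.

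The libraries held 10826 (rat IgG), 8445 (DATK32) and 8387 (MECA-367) barcodes, with 30359331, 28030376 and 27846540 UMIs. After the limits 7367, 5852 and 5890 barcodes were kept. Cell classes came from clusters built without any receptor segment gene and without Cd163l1, and were named from marker lists. The T cell-like class had 628, 678 and 809 barcodes in the same order, the NK and ILC1-like class 163, 301 and 357, and the ILC2-like class 51, 58 and 139. No cluster took the name ILC3. The T class was made of 2 clusters, the larger one with 356, 364 and 460 barcodes, but its finer make-up differed between libraries. Of its barcodes 8.76%, 18.7% and 29.9% lay in sub-cluster 2 (led by Gm156, Klra5, Cd7 and Cd8a) and 29.9%, 19.9% and 12.7% in sub-cluster 4 (led by Ly6c2 and Lef1), from the sub-clustering described below. Sub-cluster 6, which took the name of epithelial cells (a Krt8 UMI in 83.3%), held 9.87%, 7.82% and 5.19% of T barcodes. The part of this make-up in the differences between libraries was not tested. The NK and ILC1-like class was mixed too. Of its 821 barcodes 338 lay in sub-cluster 7, 206 in sub-cluster 8, 100 in sub-cluster 4 and 48 in sub-cluster 6. A Cd3 UMI was held by 5.33% of all barcodes of sub-cluster 7 and 72.1% of sub-cluster 4. Median UMIs per T barcode were 772, 950.5 and 1280, so shares of barcodes with a UMI are given below both as counted and after each barcode was thinned at random to 500 UMIs. Kept barcode sequences shared between libraries numbered 11 for DATK32 with rat IgG, 9 for MECA-367 with rat IgG and 7 for DATK32 with MECA-367. With 1 library per group no test between treatments was possible: a difference is called here when it reached 1.5-fold and exact 95% intervals (Clopper-Pearson for shares, Poisson for counts) did not overlap, and these intervals cover counting error only.

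The beta and gamma constant genes are near copies, and how far their reads can be told apart depends on their sequence. Trbc1 and Trbc2 shared 495 of 518 coding bases (95.6%), and in the 3′ untranslated region, where 3′ reads mostly fall, 41.8% of aligned bases with a longest shared run of 8. Exon 3 held 15 of the 23 coding differences, marked here in capitals (GENCODE vM21 on GRCm38, the assembly also called mm10, 5′ to 3′).
Trbc1 exon 3, chr6:41539229-41539335, plus strand: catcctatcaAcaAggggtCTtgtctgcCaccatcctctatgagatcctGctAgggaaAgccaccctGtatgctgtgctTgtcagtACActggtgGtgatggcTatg
Trbc2 exon 3, chr6:41547772-41547878, plus strand: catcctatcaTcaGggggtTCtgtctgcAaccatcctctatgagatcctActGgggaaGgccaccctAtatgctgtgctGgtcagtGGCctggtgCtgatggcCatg
Trbc1 exon 4, chr6:41539645-41539662, plus strand: gtcaaAaGaaaGaattcA
Trbc2 exon 4, chr6:41548161-41548178, plus strand: gtcaaGaAaaaAaattcC
Both genes have separate 3′ ends, so reads that fall there rest on different bases. Exon 1, in contrast, differed at 1 of 375 bases, and the longest run shared by the coding parts was 259 bases. Where the reads fell was not examined.

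The gamma constant genes differ most in the short exons that encode the stretch between the constant domain and the membrane. Tcrg-C1 carries 15 bases in exon 2 that Tcrg-C2 lacks, marked in capitals, and Tcrg-C4 has another sequence there and an extra exon.
Tcrg-C1 exon 2, chr13:19215864-19215908, plus strand: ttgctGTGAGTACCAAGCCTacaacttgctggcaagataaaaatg
Tcrg-C2 exon 2, chr13:19305769-19305798, minus strand: ttgctacaacttgctggcaagataaaaatg
Tcrg-C4 exon 2, chr13:19349536-19349589, plus strand: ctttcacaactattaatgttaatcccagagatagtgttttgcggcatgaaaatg
Tcrg-C4 exon 3, chr13:19350330-19350374, plus strand: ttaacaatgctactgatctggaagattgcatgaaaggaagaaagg
Tcrg-C1 and Tcrg-C2 were 94.6% identical in coding bases and 93.2% in the 3′ untranslated region, with a shared run of 104 bases, so the split of counts between this pair is uncertain. Tcrg-C4 was 69.6% identical to Tcrg-C1 in coding bases and 51.8% in the 3′ untranslated region. Trac and Trdc, the alternative constant genes of the alpha and delta chains, were 43.9% identical in coding bases.

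All 9 genes were present in the annotation. Trac (ENSMUSG00000076928) lies at chr14:54220521-54224206 on the plus strand, and Trdc (ENSMUSG00000104876) at chr14:54142851-54148868 with Trdv4 (ENSMUSG00000076867) at chr14:54074905-54075515, both upstream of it on the same strand. Trbc1 (ENSMUSG00000076490) and Trbc2 (ENSMUSG00000076498) span chr6:41538218-41539881 and chr6:41546730-41548352. Tcrg-C1 (ENSMUSG00000076749), Tcrg-C2 (ENSMUSG00000076752, minus strand) and Tcrg-C4 (ENSMUSG00000076757) span chr13:19214103-19217024, chr13:19304649-19307551 and chr13:19344558-19352756. Cd163l1 (ENSMUSG00000025461) spans chr7:140218267-140231145 on the plus strand.

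The alpha and beta constant genes were found at near-equal levels in the T class of the 3 libraries. Trac, the only alpha constant gene, gave 268, 414 and 611 UMIs (rat IgG, DATK32, MECA-367), or 392.2, 447.8 and 406.2 CPM (counts scaled to a common total of UMIs per class and library, as CPM is usually defined). Trbc1 stood at 422.9, 514.9 and 507.3 CPM and Trbc2 at 1045, 973.5 and 982.7 CPM. For Trac the 95% intervals of all 3 libraries overlapped (346.6-442.1, 405.7-493.1 and 374.7-439.8 CPM). The share of T barcodes with a Trac UMI was 30.57%, 37.17% and 43.26% as counted, in the order of the depths, and 18.47%, 20.50% and 20.27% after thinning. Trbc1 was detected in 28.50%, 35.10% and 38.94% (thinned 19.59%, 20.35% and 20.02%) and Trbc2 in 54.78%, 60.18% and 64.15% (thinned 37.58%, 37.91% and 36.34%). The rise with depth seen in the counted shares was thus absent from the thinned ones.

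The delta and gamma constant genes were rarer. Trdc gave 69, 100 and 179 UMIs in T barcodes, or 101.0, 108.2 and 119.0 CPM, with overlapping intervals (78.56-127.8, 88.01-131.6 and 102.2-137.8). It was detected in 7.962%, 9.440% and 9.765% of T barcodes, 193 of 2115 in all, and in 4.140%, 5.457% and 5.068% after thinning. The gamma constant genes reached 33.66, 44.35 and 48.54 CPM for Tcrg-C1, 45.36, 49.76 and 59.17 CPM for Tcrg-C2, and 30.73, 49.76 and 39.23 CPM for Tcrg-C4. All 3 gamma genes were lowest in the rat IgG library, with overlapping intervals. Their barcodes numbered 117, 140 and 113 of 2115.

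The rarest of the 9 were Trdv4, the segment used by the delta chain of fetal-wave gamma-delta T cells that pair it with the Vγ6 chain, and Cd163l1. Trdv4 gave 4, 9 and 25 UMIs in 3, 9 and 15 T barcodes. Cd163l1 gave 10, 17 and 49 UMIs in 8, 10 and 23 T barcodes, or 14.63, 18.39 and 32.58 CPM. MECA-367 was highest for both, and for Cd163l1 its interval (24.10-43.07 CPM) overlapped that of rat IgG (7.018-26.91 CPM).

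**Figure D1:**
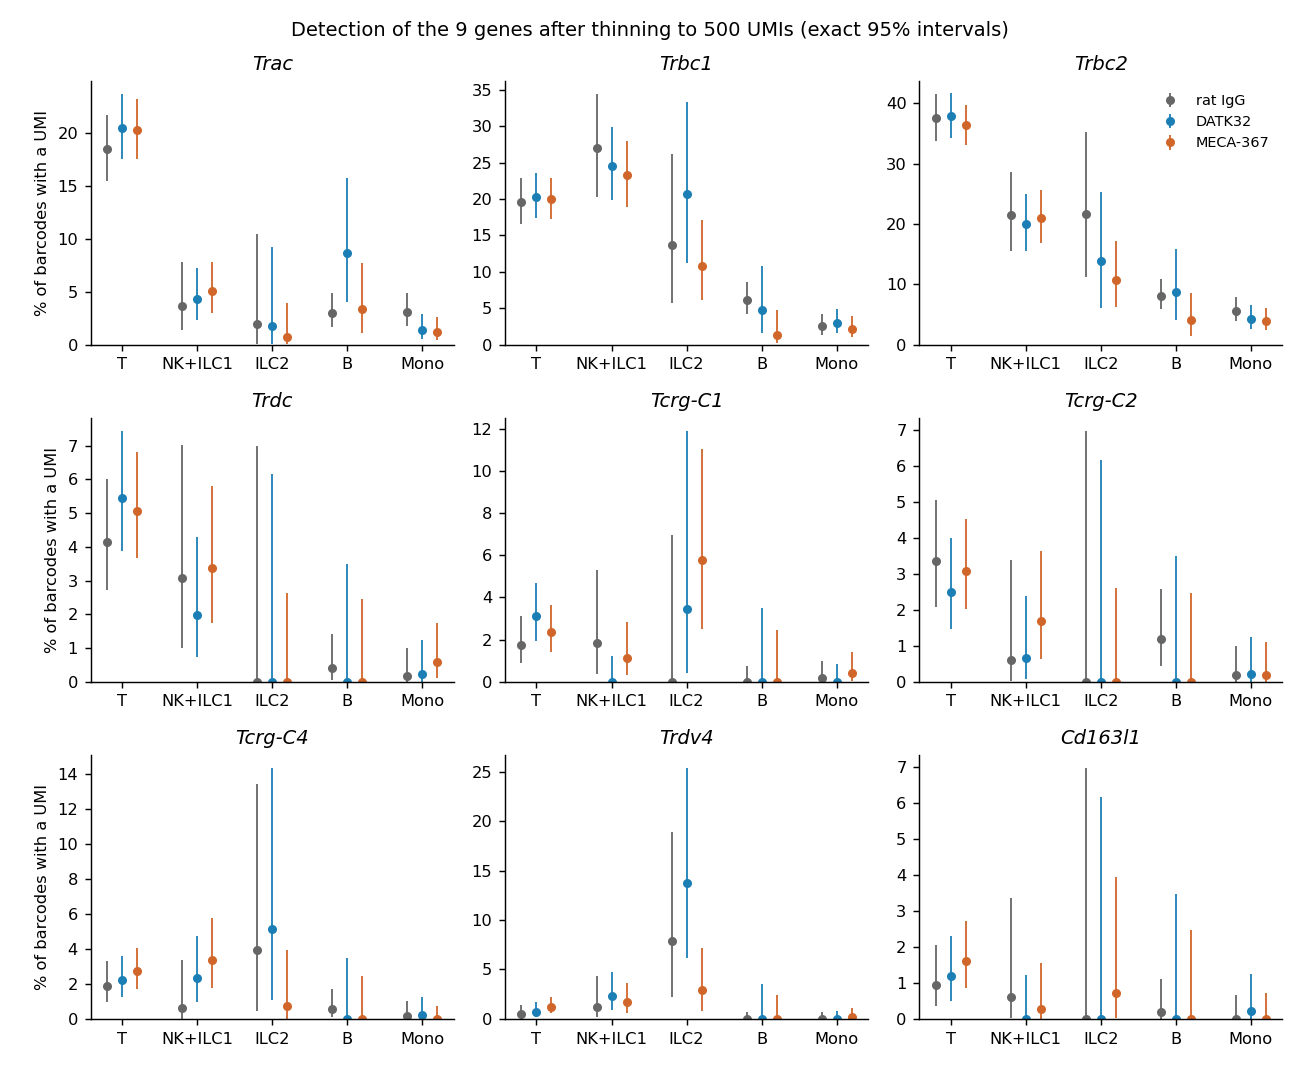
Share of barcodes with at least 1 UMI of each gene (y axis, percent, a separate scale per panel) after thinning every barcode to 500 UMIs, in 5 cell classes (x axis; Mono, monocytes and macrophages), with 1 point per library and exact 95% intervals. In the T class the 3 libraries overlap for every gene, and Trdv4 is seen most in the ILC2 class of the DATK32 library.

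RNA of these genes was also found where no T cell receptor is made. In B cell-like barcodes, of a median 944 UMIs against 1036 in T barcodes, Trac was detected in 9.511% (T 37.54%), Trbc1 in 9.379% (T 34.61%), Trbc2 in 14.53% (T 60.09%) and Trdc in 1.321% (T 9.125%). The gamma genes were seen there in 0.3963% (Tcrg-C1), 1.585% (Tcrg-C2) and 0.6605% (Tcrg-C4), against 5.532%, 6.619% and 5.343% in T barcodes. Epithelial-like barcodes, deeper at a median of 3245.5 UMIs, held Trac in 0.7350%, Trbc2 in 1.022% and Trdc in 0.07171%. The level outside T, NK and ILC barcodes therefore differed by class, and shares near the B cell ones are read below as background.

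None of the 8 genes of the 9 that could be measured was called between treatments in the T class by the rule used here. Of the 6388 genes measured in T barcodes (at least 50 counts over the 3 libraries), DATK32 against rat IgG called 0.626% higher and 1.24% lower, and none of the 8 measured members in either direction. MECA-367 against rat IgG called 2.83% of genes higher and 5.37% lower, and again 0 of 8 members. DATK32 against MECA-367 called 3.84% higher and 2.50% lower, and 0 of 8 members. With shares over all genes this small, 0 of 8 does not set the members apart from other genes. Some alternative settings called Trdc, Cd163l1 or Tcrg-C2, as given in the last section. Trdv4, with 38 counts, was not measured. The member with the largest log2 ratio was Cd163l1, at 1.05 for MECA-367 over rat IgG and -0.77 for DATK32 over MECA-367, followed by Tcrg-C4 at 0.66 for DATK32 against rat IgG (1 count added to each sum). These 3 comparisons share libraries in pairs and are not independent.

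The genes that carry the receptor signal, listed with the CD3 chains and the proximal kinases and adaptors, were nearly level between treatments too. All 20 of that list were measured in T barcodes, with 0 called for DATK32 against rat IgG (median log2 ratio -0.01, all genes -0.09). MECA-367 against rat IgG called 1 higher, Fcer1g, a signalling adaptor that can replace CD247 (0.97). DATK32 against MECA-367 called Cd3e higher (0.78) and Fcer1g lower (-0.66). In the list of genes of cytotoxic or intraepithelial-like gamma-delta T cells, 5 of 14 measured were higher in MECA-367 than in rat IgG and none lower (median log2 ratio 0.50, all genes -0.08). They were the granzymes Gzma (1624 against 614.6 CPM, log2 ratio 1.40) and Gzmb (1.24), the chemokine Ccl5 (0.60), the activating receptor gene Klrk1 (0.91) and Fcer1g. The share of T barcodes in sub-cluster 2 moved with this (8.76% in rat IgG, 29.9% in MECA-367). The NK and ILC1 class, in the same comparison, had 4 of 13 genes of the list higher and none lower (Gzma, Gzmb, Ccl5 and Klrd1). In the list of genes of IL-17-making gamma-delta T cells, 0 of 12 measured were called for MECA-367 against rat IgG, only Ccr2, a chemokine receptor, for DATK32 against rat IgG (0.76, higher), and only the cytokine Il17f for DATK32 against MECA-367 (-0.87, lower).

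Receptor detection per barcode was likewise alike. After thinning, at least 1 alpha or beta constant UMI was present in 57.3% (53.3-61.2), 60.3% (56.5-64.0) and 58.3% (54.9-61.8) of T barcodes of rat IgG, DATK32 and MECA-367. As counted these shares were 72.5%, 79.9% and 83.4%. Barcodes with Trdc and no alpha or beta constant UMI, called delta-only here, made up 2.23% (1.22-3.71), 2.36% (1.35-3.80) and 2.35% (1.42-3.64) after thinning, 49 of 2115 in all. Barcodes with both an alpha or beta UMI and a Trdc UMI made up 1.91%, 3.10% and 2.72% (12, 21 and 22 barcodes). None of these shares differed between libraries by the calling rule. Barcodes with none of these genes were 40.4%, 37.3% and 39.3% after thinning and 18.7% over all T barcodes as counted.

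Both chains of an alpha-beta receptor, Trac and either Trbc gene, were seen in 643 of 2115 T barcodes (30.4%), or 23.1%, 29.6% and 36.7% by library, and after thinning in 9.87%, 9.44% and 11.7%. As counted, 17.3% of T barcodes held none of the 4 loci's constant genes (alpha, beta, gamma or delta), 40.2% held 1, 34.5% held 2, 7.28% held 3 and 0.757% (16 barcodes) held all 4. The median UMIs of these barcodes were 755.5, 918, 1293, 1549 and 2412.5, so the number of loci seen followed depth. Counts of barcodes with several loci are therefore given without a reading as cells with several receptors.

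The beta genes divided differently by class. In T barcodes Trbc1 made up 33.1% of Trbc UMIs (31.7-34.5), with 28.8% (26.0-31.7), 34.6% (32.1-37.2) and 34.0% (32.1-36.1) by library. The rat IgG interval did not overlap either of the others, at a ratio under 1.5-fold. These intervals treat UMIs of 1 barcode as independent and so are too narrow. With barcodes as the unit the libraries were not apart. Trbc1 alone was held by 15.7% (12.3-19.6), 16.9% (13.7-20.5) and 16.6% (13.7-19.7) of T barcodes with any Trbc UMI. In the NK and ILC1 class Trbc1 made up 52.8% (49.9-55.7), with 51.1%, 54.3% and 52.2% by library, and in ILC2 49.4% (41.2-57.5). B cell, plasma cell and monocyte barcodes, with 36.6%, 36.4% and 36.3%, lay near the T class. A ratio of 2 genes in the same barcodes does not move with depth, and the NK interval stood above that of T barcodes in each library. Of the 1521 T barcodes with any Trbc UMI, 16.4% held Trbc1 alone, 51.9% Trbc2 alone and 31.7% both. Of the 504 such NK and ILC1 barcodes, 43.5% held Trbc1 alone and 32.3% Trbc2 alone.

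Alpha transcripts were scarce beside beta transcripts in NK and ILC2 barcodes. Trac made up 21.9% (20.8-22.9) of Trac and Trbc UMIs in T barcodes, with 21.1%, 23.1% and 21.4% by library. Of 6 classes that make no receptor (B, plasma, stromal and epithelial cells, neutrophils, and monocytes with macrophages) all lay close to it, from 20.4% in monocytes and macrophages to 24.4% in plasma cells, with 22.3% in B cells and 22.8% in epithelial cells. NK and ILC1 barcodes had 11.3% (9.62-13.1), with 9.84%, 13.9% and 9.66% by library, and ILC2 barcodes 3.75% (1.39-7.98), 6 of 160 UMIs. The NK and ILC1 interval lay below that of T barcodes in each library, and that of ILC2 in DATK32 and MECA-367 but not in rat IgG.

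**Figure D2:**
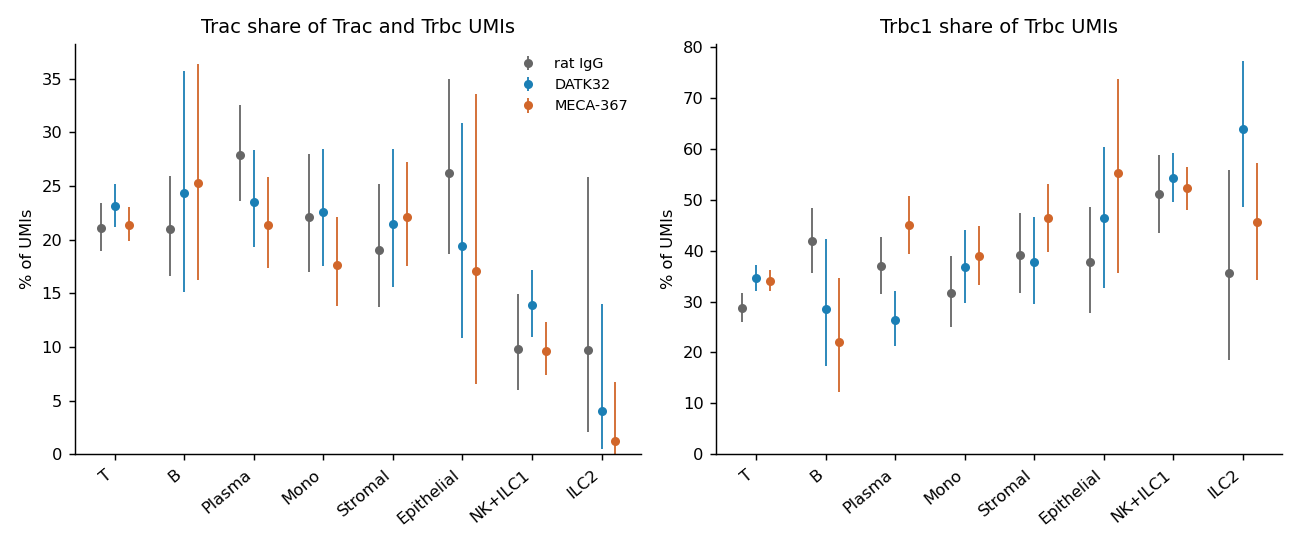
Trac as a percent of Trac, Trbc1 and Trbc2 UMIs (left) and Trbc1 as a percent of Trbc1 and Trbc2 UMIs (right), y axes in percent, for 8 cell classes (x axis), with 1 point per library and exact 95% intervals. The Trac share is near 22 percent in T cells and in the B, plasma, monocyte, stromal and epithelial classes and lower in NK with ILC1 (11.3%) and ILC2 (3.75%), and the Trbc1 share is higher in NK with ILC1 (52.8%) than in T cells (33.1%).

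In the NK and ILC1 class Trbc1 reached the level of T barcodes, while Trbc2 and Trac did not. Trbc1 stood at 580.3, 607.8 and 557.1 CPM in rat IgG, DATK32 and MECA-367, against 491.0 CPM over all T barcodes, and Trbc2 at 517.2 CPM against 993.6. Trac stood at 123.9, 180.0 and 114.1 CPM, against 415.5 CPM in T and 106.6 CPM in B cell barcodes. Read against the B cell level as background, Trac was near it in rat IgG and MECA-367 and higher in DATK32, and Trbc1 (41.53% of barcodes) was far above it. The class level of Trac is that of a mixture. Trac stood at 39.93 CPM (22.35-65.86) in sub-cluster 7, below the B cell level, and at 453.1 CPM over all barcodes of sub-cluster 4. Trdc gave 7, 13 and 41 UMIs, or 45.64, 33.91 and 79.31 CPM, and was detected in 5.238% of the 821 barcodes (2.801% thinned). Trdv4 was seen in 27 of 821 barcodes (3.289%), against 0.2642% in B cell and 1.277% in T barcodes. Cd163l1 gave 2, 0 and 2 UMIs.

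In this class 4 members were measured among 2917 genes (Trac, Trbc1, Trbc2 and Trdc), and none was called between treatments. The share of all measured genes called, in either direction, was 2.43% between DATK32 and rat IgG, 4.35% between MECA-367 and rat IgG, and 4.66% between DATK32 and MECA-367. Trdc had the largest ratio, -1.15 on the log2 scale for DATK32 against MECA-367, with overlapping intervals (18.06-57.99 and 56.91-107.6 CPM). Of Trac and Trdc UMIs together, Trdc made up 26.9%, 15.9% (8.72-25.6) and 41.0% (31.3-51.3), and the DATK32 and MECA-367 intervals did not overlap, in 82 and 100 UMIs. This share of UMIs met the calling rule, but its intervals treat UMIs of 1 barcode as independent. By barcode the intervals overlapped. Trdc without Trac was seen in 3.32% (1.60-6.02) of DATK32 and 6.16% (3.90-9.18) of MECA-367 barcodes, and Trac without Trdc in 13.0% (9.38-17.3) and 8.96% (6.21-12.4).

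ILC2 barcodes had beta transcripts, almost no alpha or delta constant transcripts, and transcripts of Tcrg-C1, Tcrg-C4 and Trdv4. Trbc1 stood at 291.9 CPM (24.19% of 248 barcodes) and Trbc2 at 299.6 CPM (22.58%). Trac gave 3, 2 and 1 UMIs and Trdc 0, 3 and 1. Tcrg-C1 was detected in 19 of 248 barcodes (7.661%), 1, 2 and 16 by library, at 84.50 CPM. Tcrg-C2 was detected in 0 of 248, which allows a share of barcodes with a UMI of up to 1.21% (3 counts), not a limit on cells that express it. Tcrg-C4 gave 2, 6 and 5 UMIs. The absence of Tcrg-C2 beside Tcrg-C1 is set against the near identity of the 2 genes given above.

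Trdv4 was found in ILC2 barcodes without the delta constant gene. It was detected in 24 of 248 barcodes (9.677%), at 99.87 CPM against 12.21 CPM in T barcodes. The rat IgG library had 5 of 51 (9.804%), DATK32 12 of 58 (20.69%) and MECA-367 7 of 139 (5.036%), and the DATK32 and MECA-367 intervals (11.17-33.35 and 2.048-10.10) did not overlap. After thinning the shares were 7.843%, 13.79% and 2.878%, and these intervals overlapped (6.148-25.38 in DATK32, 0.7895-7.204 in MECA-367), so by the rule used here the difference did not hold at equal depth. Of the 24 barcodes 1 had a Trdc UMI and 2 had a Trac UMI. In T barcodes with Trdv4, by contrast, 19 of 27 had a Trdc UMI and 1 had a Trac UMI. Of the 19 ILC2 barcodes with Tcrg-C1, 0 had Trac or Trdc and 3 had Trdv4. No ILC2 barcode was delta-only (0 of 248), while 96 of 248 (38.7%) held an alpha or beta constant UMI, 93 of them a beta one.

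Within the T class, barcodes with Trdc held Trac less often and the gamma genes more often than barcodes without. Trac was detected in 33 of 193 barcodes with Trdc (17.1%) and in 761 of 1922 without (39.6%), at median depths of 1182 and 1018.5 UMIs. By library the shares were 16.0% against 31.8% (rat IgG), 20.3% against 38.9% (DATK32) and 15.2% against 46.3% (MECA-367). The same direction held in each library, with intervals that did not overlap in DATK32 and MECA-367 and overlapped slightly in rat IgG. The beta genes did not follow Trac. Trbc2 was detected in 58.5% of barcodes with Trdc and 60.2% of those without, and Trbc1 in 39.9% and 34.1%. For Trbc1 the libraries differed in direction, with 28.0% against 28.5% in rat IgG, 51.6% against 33.4% in DATK32 and 38.0% against 39.0% in MECA-367.

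Among the gamma genes Tcrg-C1, which joins the variable segments V4 to V7, went most with Trdc. It was detected in 29.0% of barcodes with Trdc and 3.17% of those without, and by library in 24.0% against 1.73%, 29.7% against 2.61% and 31.6% against 4.79%. Tcrg-C2 was detected in 17.1% against 5.57% and Tcrg-C4 in 11.9% against 4.68%. Seen from the gamma side, the 3 genes differed. Of the 117 barcodes with Tcrg-C1, 47.9% held Trdc and 25.6% Trac. Of the 140 with Tcrg-C2, 23.6% held Trdc and 38.6% Trac, and of the 113 with Tcrg-C4, 20.4% held Trdc and 36.3% Trac. The Trac shares of the latter pair were close to those of barcodes without the gene (37.5% and 37.6%). The variable segment Trgv2, which joins Tcrg-C2, showed the same: its 120 T barcodes held Trac in 44.2%, against 37.1% without it, Tcrg-C2 in 23.3% against 5.61%, and Trdc in 18.3% against 8.57%.

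Cd163l1 and Trdv4 marked a small group of barcodes with Trdc. Cd163l1 was detected in 13.5% of T barcodes with Trdc and 0.780% of those without, that is 4 of 50, 7 of 64 and 15 of 79 barcodes with Trdc by library against 4 of 578, 3 of 614 and 8 of 730 without. Of its 41 barcodes, 26 held Trdc, 15 Tcrg-C1, 14 Trdv4 and 6 Trac. Trdv4 was detected in 9.84% against 0.416%, and its 27 barcodes held Tcrg-C1 in 15 and Cd163l1 in 14. The variable segment Tcrg-V6 had 9 UMIs in 8 T barcodes, of which 6 held Trdc, 6 Tcrg-C1, 5 Trdv4 and 4 Cd163l1. These are few barcodes, in which the genes of 1 known gamma-delta subset were seen together.

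**Figure D3:**
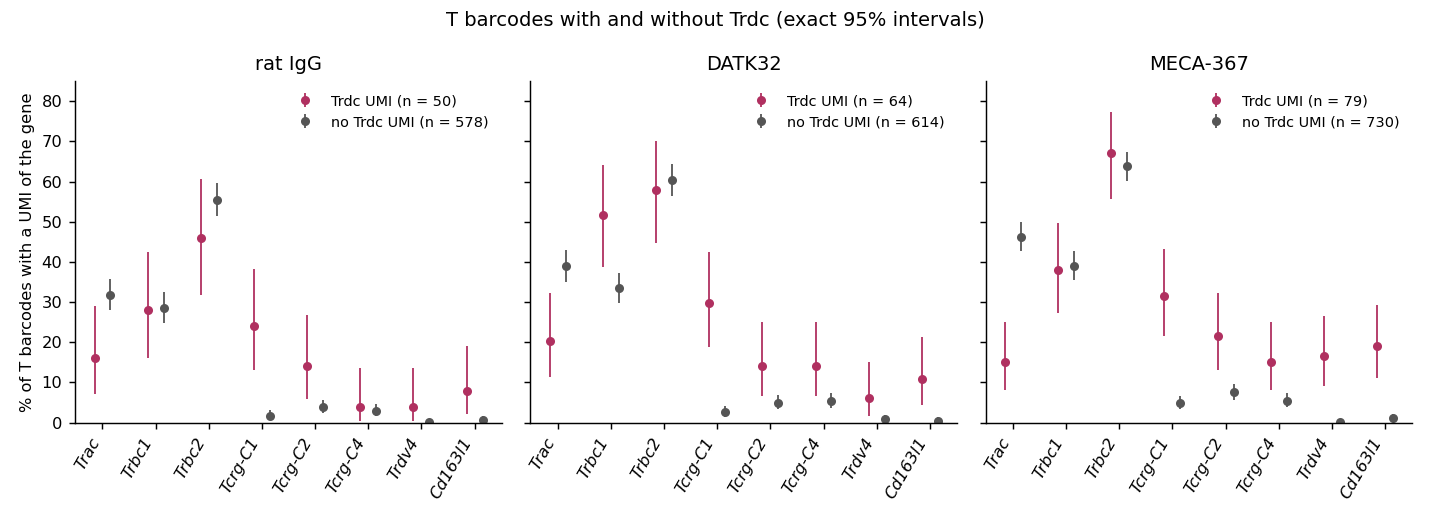
Percent of T barcodes with a UMI of each of the other 8 genes (y axis; genes on the x axis), split by whether the barcode held a Trdc UMI, in 1 panel per library, with exact 95% intervals. In all 3 libraries Tcrg-C1 and Cd163l1 lie higher and Trac lower in barcodes with Trdc, while the 2 beta genes overlap except for Trbc1 in DATK32.

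Over the NK and ILC1 class, which held barcodes of sub-clusters 4 and 6 as given above, Trac shares were close with and without Trdc. Of the 43 barcodes with Trdc 9.30% held Trac, against 10.5% of those without, and 9.30% held Tcrg-C1, against 1.54%. Trac went with Trbc2 there, which was detected in 64.0% of barcodes with Trac and 31.3% of those without. Of the 27 NK and ILC1 barcodes with Trdv4, 4 held Trdc. In the NK and ILC1-like sub-cluster 7 Trac was detected in 3.550% of barcodes, and 0 of its 13 barcodes with Trdc held Trac. The part of the class make-up in these shares was not tested.

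Lymphoid barcodes were also clustered among themselves, again without the 9 genes, and the receptor genes were unevenly spread. Sub-clusters are called by number and leading genes unless the markers named them. Sub-cluster 5 (170 barcodes, 157 of them of the T class; 44, 55 and 71 by library) was led by the cytokine genes Il22, Il17f and Il17a, the cytokine receptor gene Il23r, Serpinb1a, Tmem176a and the kinase gene Blk. It stayed unnamed, since its leading genes include markers of both ILC3 and IL-17 T cells, and 55.9% of its barcodes held a Cd3 UMI. Trdc was detected in 27.65% of it (559.1 CPM, against 111.8 CPM over T barcodes), Tcrg-C1 in 16.47%, Cd163l1 in 18.24% and Trdv4 in 14.71%. Trac was detected in 13.53% (175.4 CPM) and Tcrg-C2 in 2.353%. Trdc made up 76.1% (68.0-83.1) of its Trac and Trdc UMIs, against 21.2% in all T barcodes, and Tcrg-C1 69.2% of its 52 gamma constant UMIs, against 31.9%. Only 3 of its 47 barcodes with Trdc (6.38%) held Trac.

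In sub-cluster 5 the shares of Trdc, Trdv4 and Cd163l1 were highest in the MECA-367 library, which was also the deepest, and that of Trac was lowest there. Trdc was detected in 22.7%, 18.2% and 38.0% (10, 10 and 27 barcodes), Trdv4 in 6.82%, 10.9% and 22.5%, and Cd163l1 in 6.82%, 16.4% and 26.8%, in the library order used above. All intervals of these shares overlapped between libraries (for Trdc 11.5-37.8, 9.08-30.9 and 26.8-50.3). Trac was detected in 13.6%, 18.2% and 9.86% and Trbc2 in 38.6%, 49.1% and 38.0%, with overlapping intervals too. After thinning Trdc was detected in 15.9%, 16.4% and 23.9%, Cd163l1 in 4.55%, 12.7% and 16.9%, and Trac in 11.4%, 9.09% and 5.63%.

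Sub-cluster 2 held Trdc without Trdv4 and almost without Cd163l1. Its 439 barcodes (56, 132 and 251) were led by Gm156, the inhibitory receptor gene Klra5, Cd7 and Cd8a, and 90.7% held a Cd3 UMI. Trdc was detected in 52 barcodes (11.85%; 12.5%, 10.6% and 12.4% by library). The gamma genes were spread evenly, with Tcrg-C1 in 9.795%, Tcrg-C2 in 12.07% and Tcrg-C4 in 10.02%. Trdv4 was in 0 of 439, which by 3 counts allows up to 0.683% of barcodes with a UMI, and Cd163l1 in 1. Trac was detected in 37.36%, and 10 of the 52 barcodes with Trdc (19.2%) also held Trac. The Trdc share of Trac and Trdc UMIs was 28.0%. Cd8a was detected in 28.7% of these barcodes and Cd4 in 0.

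Trdc was also found in sub-cluster 3 (183 barcodes, led by heat shock genes such as Hspa1a), in 12.57% (210.1 CPM), and in sub-clusters 9, 12 and 13, in 11.86%, 12.70% and 11.11% (14, 8 and 6 barcodes). Trdc was rarer in others, among them sub-clusters 0, 6, 7 and 8, which are described next together with sub-cluster 9. In the regulatory T-like sub-cluster 0 (276 barcodes, led by Tnfrsf4, Foxp3 and Il10) Trac was detected in 51.45% and Trdc in 5 barcodes, with 0 barcodes of Trdv4 and Cd163l1, and the Trac share of Trac and Trbc UMIs was 28.2%. The cycling sub-cluster 9 (118 barcodes, median 2910.5 UMIs) held Trac in 71.19%. The epithelial-like sub-cluster 6 (228 barcodes, median 1765.5 UMIs) held Trac in 28.95% and Trdc in 6.579%. The NK and ILC1-like sub-cluster 7 (338 barcodes, a Cd3 UMI in 5.33%) had Trbc1 in 44.08% and Trbc2 in 20.41%, and Trbc1 made up 68.6% (63.3-73.6) of its Trbc UMIs. Trac made up 4.41% of its Trac and Trbc UMIs (15 of 340). It had 0 UMIs of Tcrg-C1, Tcrg-C2, Tcrg-C4 and Cd163l1, which by 3 counts allows up to 0.888% of barcodes with a UMI of each, and 13 barcodes each with Trdc and with Trdv4. Sub-cluster 8 (229 barcodes, led by Gzmc, Klrb1b and Ncr1, a Cd3 UMI in 25.3%) had Trac in 9.607%, Trdc in 4.367% and Tcrg-C4 in 5.677%.

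**Figure D4:**
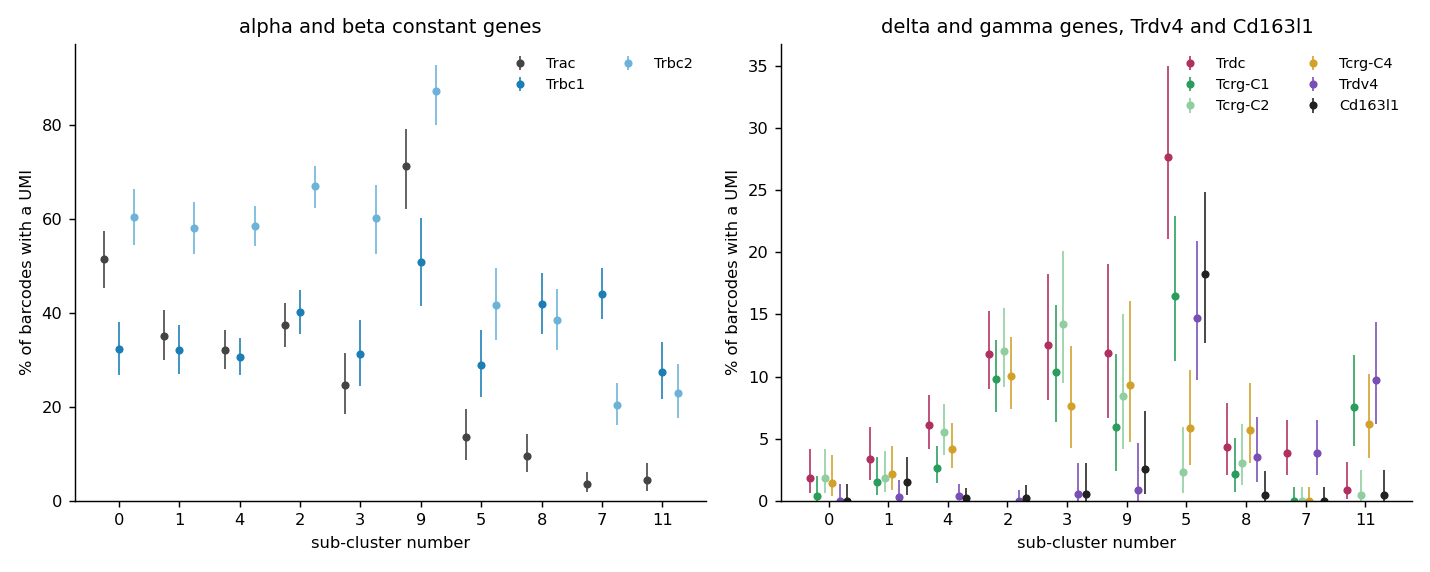
Percent of barcodes with a UMI (y axis) of the alpha and beta constant genes (left) and of the delta and gamma genes, Trdv4 and Cd163l1 (right) in 10 lymphoid sub-clusters (x axis), over the 3 libraries together, with exact 95% intervals. Sub-cluster 5 (Il22, Il17f) is highest for Trdc (27.65%) with Trdv4 and Cd163l1, sub-clusters 2, 3 and 9 hold Trdc with little Trdv4, and sub-cluster 7 (NK and ILC1) has Trbc1 with little Trac.

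Over all 35 clusters and sub-clusters of at least 50 barcodes, the genes whose CPM ranked most like Trdc were Lpxn (Spearman's rho 0.94), Camk4 (0.92), Thy1 (0.91), Cd96 (0.91) and A930024E05Rik (0.91), and those most like Trac were the CD3 chains Cd3g and Cd3d (both 0.96). Trbc1 ranked most like Gimap5 (0.98) and Tcrg-C1 like the chemokine receptor gene Cxcr6 (0.87). These points share libraries and, for sub-clusters, barcodes, and the values are a description.

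What else differed in barcodes with delta transcripts was tested within libraries. Counts were summed per library for the 48 delta-only T barcodes (20, 12 and 16 by library) and for the 1527 with alpha or beta and no Trdc, and compared by edgeR's quasi-likelihood test with the library as a block. The receptor segment genes chose the barcodes and were not tested. Of 4972 genes 0.201% were higher (10) and 1.43% lower (71) at a Benjamini-Hochberg adjusted p under 0.05, and 43 of the 71 were ribosomal protein genes. The delta-only sums were small, at 20875, 11024 and 25088 UMIs, and their barcodes were shallower, with median UMIs of 717.5, 780.5 and 1180 against 822, 1013.5 and 1363. The part of depth in these calls was not tested. Leaving out 1 library left 6 higher and 6 lower calls without rat IgG, 1 and 0 without DATK32, and 0 and 3 without MECA-367.

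Cd163l1 had the largest positive change of the named genes, a log2 fold change of 5.28 ± 0.68 (SE; edgeR, adjusted p = 3.61e-11), from 16 counts in delta-only and 14 in alpha-beta-only barcodes, and it was higher in 2 of 3 libraries with 0 counts in the rat IgG sum. Other genes that rose were the chemokine receptor Cxcr6 (2.13), the chemokine Ccl4 (2.07), Klrk1 (2.03), the adhesion molecule Icam1 (1.66) and Gzma (1.18). Genes that fell included the costimulatory receptor Tnfrsf4, with 0 counts against 919 and so at least 7.15-fold lower, the adhesion receptor Cd2 (-2.90) and the transcription factor Klf2 (-2.31). The regulatory T-like sub-cluster 0, which Tnfrsf4 leads, held 14.9% of the alpha-beta-only and 0% of the delta-only barcodes. Of the CD3 and signalling list 1 of 20 fell (Cd2) and 0 rose, with a median of -0.82 with genes at 0 set to their bound, against -0.36 over all genes. In the list of IL-17-making gamma-delta T cells 2 of 13 rose (Cd163l1 and Cxcr6, median 1.19), and 11 of 13 had a positive change. The cytokine gene Il17a went the other way without passing (-2.22, edgeR adjusted p = 0.353). Genes were filtered by CPM over all sums, and in the small delta-only sums a few UMIs could bring a gene in. Il1r1 (8.36 to 20.3 CPM in alpha-beta-only sums) and Il23r (8.14 to 14.3 CPM) are examples. The median and the signs of this list are thus tilted upward and give no separate support. Il17f (2.25, edgeR adjusted p = 0.838) had 1454 CPM in the DATK32 delta-only sum and 0 in those of rat IgG and MECA-367. In the cytotoxic list 2 of 13 rose (Gzma and Klrk1, median 0.25). Gzma turned to -0.29 when 2 UMIs of Trdc were required, and neither gene passed without any 1 of the libraries (edgeR adjusted p = 0.0662 to 0.696 for Gzma and 0.166 to 0.993 for Klrk1). Beside these calls the NK and ILC1 markers, which include Gzma, summed to 2272-3456 CPM in the delta-only sums against 940-1925 CPM, the ILC3 markers to 480-10723 against 464-567, the epithelial markers to 182-4608 against 472-1629 and the B cell markers to 0 against 23.6-67.4, and their part in the calls was not tested.

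Since Trbc2 was detected at close shares with and without Trdc, a second contrast used Trac alone. It was chosen after the data were seen. T barcodes with Trdc and without Trac numbered 42, 51 and 67 (7.57% of T barcodes), and those with Trac and without Trdc 184, 239 and 338 (36.0%). Barcodes with both numbered 33 (1.56%), and 54.9% had neither. Of the 160 barcodes with Trdc and without Trac, 26.2% (19.6-33.8) lay in sub-cluster 5 and 24.4% in sub-cluster 2, and of those with Trac and without Trdc 2.63% and 19.8%. The former were again shallower (median UMIs 754.5, 938 and 1393 against 1031.5, 1199 and 1549). Of 3304 genes 1.57% were higher (52) and 0.847% lower (28) by the same test, none of them ribosomal. Without the rat IgG library only 3 higher and 0 lower calls were left, without DATK32 there were 72 and 70, and without MECA-367 20 and 9.

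Genes of the cytotoxic list, and Cd163l1, were higher in the Trdc barcodes. Gzma, a granzyme, stood at 2034, 3132 and 6201 CPM against 278, 425 and 1192 CPM in the same libraries (log2 fold change 2.66 ± 0.16, edgeR adjusted p = 6.05e-51), and Cd163l1 at 121, 149 and 309 against 0, 0 and 6.02 CPM (6.04 ± 0.66, adjusted p = 9.11e-17). Both were higher in 3 of 3 libraries, and both kept their call without rat IgG (edgeR adjusted p = 0.0205 and 0.0339). Ccl5 stood at 6964 against 2887 CPM (1.32 ± 0.14, edgeR adjusted p = 2.79e-17). Of the cytotoxic list, 9 of 12 tested rose and 0 fell, with a median of 1.29 against -0.03 over all genes. They included Klrk1 (1.67), the integrin Itgae, which binds E-cadherin on epithelium (1.55), the adaptors Tyrobp (1.47) and Fcer1g (1.36), the surface protein gene Cd7 (1.26) and Gzmb (0.75). Without rat IgG edgeR gave adjusted p = 0.0867 for Ccl5 and 0.326 to 0.555 for the rest of these, without DATK32 Itgae was lost (0.0758), and without MECA-367 Klrk1, Itgae, Tyrobp and Gzmb were (0.0834 to 0.69). With T barcodes picked by Cd3 UMIs the calls of Gzma, Cd163l1, Ccl5 and Cd7 held and those of Klrk1, Itgae, Tyrobp, Fcer1g and Gzmb did not, and without the library block Gzma itself had an edgeR adjusted p of 0.403 at a fold change of 2.58.

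Genes of the IL-17 list also rose, 4 of 11 tested and 0 fell (median 0.74): Cd163l1, the membrane protein genes Tmem176a and Tmem176b (both 2.16) and Cxcr6 (1.81). Genes were filtered by CPM over all sums, so some that were low in the Trac sums entered through the Trdc sums. Examples are Cd163l1 (0, 0 and 6.02 CPM with Trac) and Il1r1 (3.98, 7.08 and 20.5 CPM). The counts and median of this list are thus tilted upward, and those of the cytotoxic list may be. The nuclear receptor gene Rora had 0.74 (edgeR adjusted p = 0.0522), the receptor gene Il1r1 2.51 (adjusted p = 0.0531) and the cytokine gene Il17a 0.39 (adjusted p = 0.971), and none of them passed. Serpinb1a, a protease inhibitor gene among those that lead sub-cluster 5, stood at 334 against 45.2 CPM (2.73 ± 0.33, edgeR adjusted p = 4.4e-13) and Klra5 at 131 against 31.2 CPM (2.19 ± 0.50, adjusted p = 0.00114). Without rat IgG the edgeR adjusted p of Serpinb1a was 0.130, those of Tmem176a, Cxcr6 and Klra5 were 0.326 and that of Tmem176b was 0.438, and without MECA-367 that of Tmem176b was 0.775.

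The co-receptor genes and several costimulatory genes were lower. Cd4 had 0 counts in barcodes with Trdc and without Trac against 109 with Trac, at least 5.35-fold lower (edgeR adjusted p = 0.000397), and Cd8b1 0 against 96, at least 4.71-fold lower (adjusted p = 0.000739). Those were 2 of the 3 genes of the co-receptor list, and the other one, Cd8a, did not pass (122 against 120 CPM, log2 fold change -0.00 ± 0.37). Of the CD3 and signalling list 5 of 20 fell and 2 rose. The inhibitory receptor genes Cd5 (-4.47 ± 0.81, edgeR adjusted p = 8.94e-06) and Cd6 (-2.48), the adhesion receptor Cd2 (-2.55), the costimulator Cd28 (-1.42) and the kinase Lck (-1.30) fell, while Cd3g (0.77 ± 0.20, adjusted p = 0.0100) and Fcer1g rose. Cd3e (0.51) and Cd3d (0.25) did not pass. The regulatory T cell factor Foxp3 (-4.07 ± 0.89, edgeR adjusted p = 0.000657) and Tnfrsf4 (-3.42 ± 0.38, adjusted p = 1.78e-16) were among the lowest. Both lead the regulatory T-like sub-cluster 0. It held 18.1% of the barcodes with Trac and without Trdc and 1.25% of those with Trdc and without Trac. The part of this make-up in the lower calls was not tested. Without rat IgG none of these lower calls was left (edgeR adjusted p = 0.326 for Cd4, Cd5 and Cd2, 0.334 for Cd8b1, 0.366 for Foxp3, 0.130 for Tnfrsf4), without DATK32 those of Cd6 and Lck were lost, and without MECA-367 those of Cd28, Cd6 and Lck, and of Cd3g among the higher. With T barcodes picked by Cd3 UMIs the calls of Cd8b1, Cd2 and Tnfrsf4 held, Cd4 was too sparse to be tested, and those of Cd5 (adjusted p = 0.156), Foxp3 (0.0903), Cd6, Cd28, Lck and Cd3g did not.

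Markers of other cell types moved with this contrast. All 10 NK and ILC1 markers, a list that holds Gzma, had a count, and their sum ranged over 3026-6784 CPM in the Trdc sums against 676-1884 CPM in the Trac sums, with 2 markers at 0 in the former. The ILC3 markers summed to 460-2655 against 250-528 CPM. The T cell markers summed to 1719-2915 against 2060-2211 CPM, the B cell markers to 0-14.9 against 27.7-87.5 CPM and the neutrophil markers to 24.2-132 against 59.0-772 CPM. The epithelial markers overlapped, at 265-2494 against 365-1867 CPM. The part of other cell types in the calls was not tested.

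**Figure D5:**
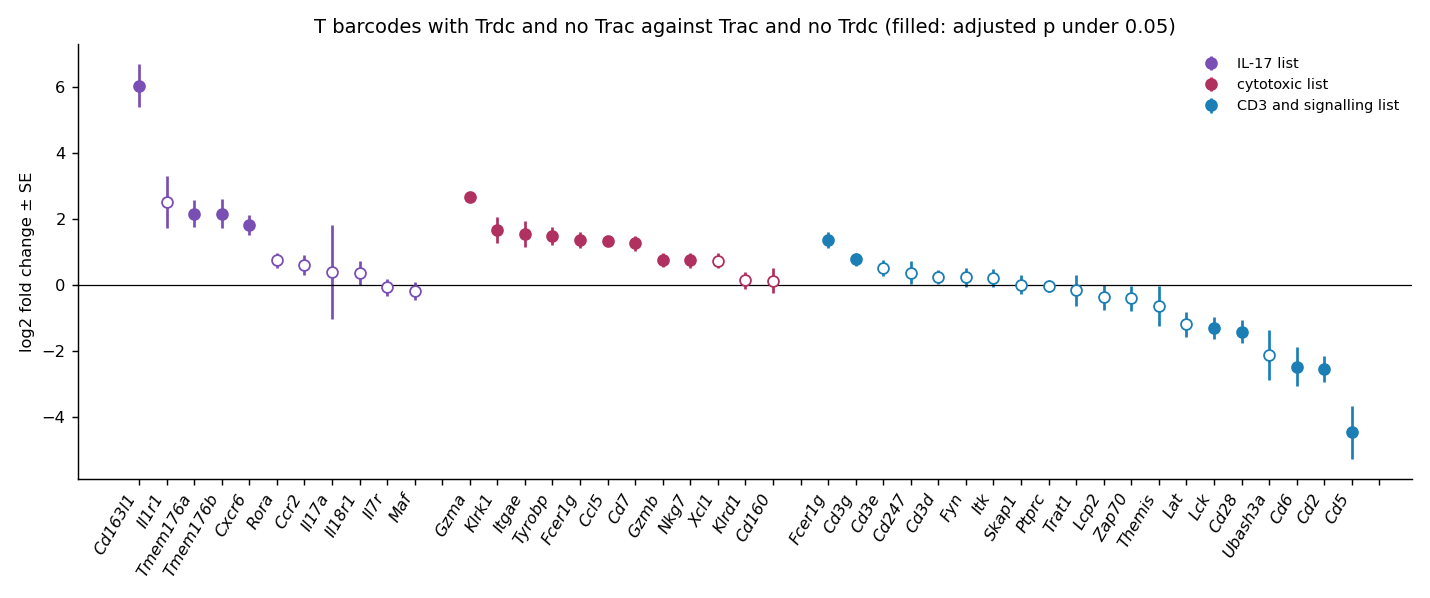
Log2 fold change with its standard error (y axis) of the tested genes of 3 lists (x axis) between T barcodes with Trdc and no Trac and T barcodes with Trac and no Trdc, with filled points for an edgeR adjusted p under 0.05. Cd163l1 (6.04) and Gzma (2.66) lie highest in their lists and Cd5 (-4.47) lowest in the CD3 and signalling list.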

How the data were processed

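The authors deposited counts of UMIs per gene and barcode, made with Cell Ranger 6.0.2 on mm10 per the submitters' processing notes. The limits on UMIs, genes and mitochondrial share are those given in the text. Barcodes over the mitochondrial limit (31.9%, 30.7% and 29.6%) were left out. Clustering used scanpy 1.11.5 (2000 variable genes, 30 components, 15 neighbours, Leiden resolution 1.0). Doublets were scored with Scrublet, which called 1 barcode and so did not work here; removing the 986 top scores was an alternative. Thinning drew 500 UMIs per barcode. Sums of 3 libraries by 2 receptor classes were tested with edgeR 4.0.16 (TMM, quasi-likelihood, robust, library block, Benjamini-Hochberg threshold 0.05), with DESeq2 1.42.0 as an alternative. The edgeR steps were also run on simulated counts. These held no differences between libraries, so they cannot show how far calls depend on a single library. Libraries differ in antibody and are replicates only of contrasts within a library. The block takes up level differences between libraries. The p-values thus rest on how far within-library differences varied from library to library, antibody effects on them included. With so few sums edgeR estimates this spread largely from other genes. A very small p-value is therefore not a measure of how closely the libraries agreed for that gene. Sequences and coordinates came from GENCODE vM21 on GRCm38.

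The members and gene lists were chosen with earlier results of these data known. Named genes were the 9 members, for each contrast the 8 highest and 8 lowest past the threshold with 1 direction in all 3 libraries and at least 10 counts in the higher class (mitochondrial, ribosomal, haemoglobin, immunoglobulin and clone-named genes left out), the 5 genes most like Trdc, and list members. Genes of the pre-receptor and recombination list had too few counts to test (0 of 4).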

Additional observations from a re-analysis of the deposited data

How the results depend on the processing

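With 1 library per treatment, a moderate depth per barcode and 48 delta-only barcodes, shares of a few percent have wide intervals, and a chain not seen may have been missed. The alpha-beta detected share stayed within its counting error in all 33 comparisons with an alternative, the co-detected share in 30 of 31 and the delta-only share in 33 of 36. Thinned to 1000 UMIs, the delta-only log2 ratio was 1.21 for MECA-367 against rat IgG (3.15% and 1.36%) and -1.71 for DATK32 against MECA-367 (0.965% and 3.15%), and with 2 UMIs of Trdc required the latter was -1.07. The co-detected log2 ratio of DATK32 against rat IgG was -0.42 with at least 1000 UMIs and 500 genes. The Trbc1 share of Trbc UMIs was 25.9% in rat IgG with at least 1000 UMIs and 500 genes and 36.4% in MECA-367 where T barcodes were picked by Cd3 UMIs. Taken over barcodes with a single Trbc gene it was 21.8%, 24.7% and 25.1%. A mitochondrial limit of 20% called 2 members for MECA-367 against rat IgG (Trdc 0.66 and Cd163l1 1.48 on the log2 scale) and 1 for DATK32 against MECA-367 (Cd163l1 -1.08). At least 1000 UMIs and 500 genes called 1 for MECA-367 against rat IgG (Tcrg-C2, 1.28).

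The delta-only contrast (10 higher, 71 lower) gave 4 and 1 with DESeq2, 6 and 121 with no filter, 9 and 8 with no library block, 6 and 10 with T barcodes picked by Cd3 UMIs, 4 and 0 with 2 UMIs of Trdc, 5 and 69 after thinning, and 0 to 6 higher and 0 to 6 lower without 1 library. Gzma had a log2 fold change of -0.29 with 2 UMIs of Trdc, against 1.18. The contrast by Trac alone, chosen after the data were seen, gave 52 and 28, and under the same alternatives 18 and 4 with DESeq2, 26 and 26 with no filter, 23 and 7 with no library block, 12 and 5 with T barcodes picked by Cd3 UMIs, and 3 to 72 higher and 0 to 70 lower without 1 library. The cause of these shifts was not tested. At an unadjusted p under 0.05 the contrasts held 506 and 383 genes. No paired analysis of the treatments was possible because each has 1 library.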
